A study of Mus musculus with 4 samples.

Results

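The globin genes described here are 7 of the 55573 gene identifiers in the count table, taken by name. They are the embryonic genes Hba-x, Hbb-y and Hbb-bh1 and the adult genes Hba-a1, Hba-a2, Hbb-bt and Hbb-bs. RNA immunoprecipitation sequencing (RIP-seq) reads the RNA that an antibody on beads pulls down. The material was wild-type C57BL/6 mouse embryos at embryonic day 10.0, whose caudal part was the source of flow-sorted CD31-positive cells. CD31 (Pecam1) is a surface protein of endothelium and of some blood cells. An antibody against Runx1, a transcription factor needed for blood stem cells to form, was used for 2 libraries, and IgG, the background control, for the other 2. Genotype, age, tissue and sort were the same in both groups, and no label ties a replicate to a separate litter or sort, so the spread behind every p-value may be technical. Beads coated with protein A held the antibodies, and the recovered RNA was amplified by a reverse transcription method made for single cells.

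Haemoglobin is a tetramer of alpha-like and beta-like globin chains, each holding a haem group. The first red cells of the mouse embryo, the primitive erythroid cells of the yolk sac, make the zeta chain (Hba-x), the epsilon-y chain (Hbb-y) and the beta-h1 chain (Hbb-bh1), together with some adult alpha chain. Red cells of the later, definitive lineage make the adult alpha and beta chains. As primitive cells mature in the circulation, Hbb-y takes the place of Hbb-bh1 as their main beta-like gene.

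The coding sequences show which of these genes a count table can tell apart. In the GENCODE M21 annotation of mm10 (GRCm38), the alpha-like genes lie on the plus strand of chromosome 11: Hba-x (32276400 to 32278116), Hba-a1 (32283511 to 32284465) and Hba-a2 (32296489 to 32297298). The beta-like genes lie on the minus strand of chromosome 7: Hbb-y (103851749 to 103853216), Hbb-bh1 (103841637 to 103843164), Hbb-bs (103826534 to 103828096) and Hbb-bt (103812524 to 103813996). Each has 3 exons in its main transcript, and no exon overlaps another annotated gene. The coding sequence is 429 bases in each alpha-like gene and 444 bases in each beta-like gene, so that positions, counted from 1 at the start codon, were compared without gaps. Coding bases 352 to 411 of the alpha-like genes are shown as GENCODE transcript sequence of the gene's own strand, with capitals where a base differs from Hba-a1.
Hba-x: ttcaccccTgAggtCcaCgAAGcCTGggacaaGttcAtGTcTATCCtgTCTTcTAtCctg
Hba-a1: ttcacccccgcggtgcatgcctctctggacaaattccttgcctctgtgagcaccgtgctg
Hba-a2: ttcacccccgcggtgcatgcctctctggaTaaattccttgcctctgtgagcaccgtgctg
These stretches lie at chr11:32277931-32277990 (Hba-x), chr11:32284314-32284373 (Hba-a1) and chr11:32297131-32297190 (Hba-a2). Coding bases 382 to 441 of the beta-like genes follow, with capitals where a base differs from Hbb-bt.
Hbb-y: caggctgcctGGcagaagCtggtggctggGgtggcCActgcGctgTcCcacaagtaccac
Hbb-bh1: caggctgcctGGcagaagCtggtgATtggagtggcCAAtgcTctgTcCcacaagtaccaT
Hbb-bs: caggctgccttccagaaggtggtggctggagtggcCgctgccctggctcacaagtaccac
Hbb-bt: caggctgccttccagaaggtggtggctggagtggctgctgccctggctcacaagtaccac
They lie at chr7:103851877-103851936 (Hbb-y), chr7:103841755-103841814 (Hbb-bh1), chr7:103826668-103826727 (Hbb-bs) and chr7:103812659-103812718 (Hbb-bt).

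The stretches were chosen because each holds the single coding difference between a pair of adult copies. From Hba-a1 to Hba-a2 that difference is C381T, and from Hbb-bt to Hbb-bs it is T417C. Hba-x differs from Hba-a1 at 163 of 429 coding bases (62.0% identical), Hbb-y from Hbb-bt at 115 of 444 (74.1% identical), and Hbb-y from Hbb-bh1 at 105 of 444 (76.4% identical). Of all stretches of 50 bases in the Hba-a1 transcript, 32.5% occur in no other gene, against 13.1% for Hba-a2, 41.7% for Hbb-bt and 34.2% for Hbb-bs. The same share is 100% for Hba-x, Hbb-y and Hbb-bh1. At that length a count is specific to the gene for the embryonic forms, while the division of counts within each adult pair is uncertain and the sum of the pair is the firmer value. The sources used here give neither the read length nor the handling of reads that match several genes.

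Globin RNA was a small part of every library. The 7 genes together held 1183 and 1398 counts in the Runx1 libraries and 1616 and 924 in the IgG libraries, out of 1675488, 1887301, 3843318 and 2482045 gene counts. Their share of gene counts was 0.0706% (exact 95% interval 0.0666 to 0.0747) and 0.0741% (0.0702 to 0.0781) with the Runx1 antibody. With IgG it was 0.0420% (0.0400 to 0.0441) and 0.0372% (0.0349 to 0.0397). Both Runx1 libraries lay above both IgG libraries, with a difference of 0.87 on the log2 scale (two-sided exact permutation test, p = 0.3333, the smallest that 2 against 2 libraries can give). No molecular identifiers are named for these amplified libraries, and all intervals cover counting error only. In a bulk pulldown library the number of cells of a type, RNA per cell and recovery by the antibody or beads cannot be told apart.

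The direction of that difference turned with the scale. Spike-in RNAs, synthetic RNAs added to each sample, gave 596 and 713 counts in the Runx1 libraries and 494 and 434 in the IgG libraries. Set against them, the globins stood at 1.98 and 1.96 counts per spike-in count for Runx1 and at 3.27 and 2.13 for IgG, a difference of -0.42 on the log2 scale. IgG replicate 1 was the high library, and IgG replicate 2 lay close to the Runx1 libraries, so the size of this difference rests largely on 1 library. All that follows, except where the spike-ins are named, is relative to the other genes of the same library.

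The embryonic genes carried most of the globin counts in all 4 libraries. Levels are CPM, counts scaled to a library of 1e+06 gene counts, and 3 counts correspond to 1.79, 1.59, 0.781 and 1.21 CPM in Runx1 replicates 1 and 2 and IgG replicates 1 and 2 (the order of all values below). Fold changes come from edgeR's quasi-likelihood test, fitted over 12401 genes and adjusted by Benjamini-Hochberg. Of the 7 genes 6 passed the filter on low counts, and Hbb-bt did not. None of the 6 was called at an adjusted p of 0.05 (0 higher, 0 lower), where 0.306% of all tested genes were called higher and 0.339% lower. All 6 had a fold change above 1, as did 51.5% of tested genes. Their median log2 fold change was 0.83, beside 0.027 over all tested genes; under the spike-in scaling both were below 0, at -0.48 and -1.25.

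Hbb-y, which encodes the epsilon-y chain, was the highest of the family, with Runx1 libraries at 292 and 307 CPM and IgG libraries at 188 and 166. The antibody groups did not overlap. The means were 299.6 ± 10.9 against 177 ± 14.99 CPM (SD, n = 2 each), and the log2 fold change was 0.73 ± 0.20 (SE), at an edgeR adjusted p of 0.160. Hba-x, the zeta chain and the alpha-like partner of the embryonic beta-like chains, stood at 219.6 and 210.4 CPM in the Runx1 libraries and 99.9 and 110.0 in the IgG libraries. Here too the groups did not overlap, and replicates of one antibody lay close together. Its means of 215 ± 6.56 and 105 ± 7.13 CPM gave the smallest p of the family, and its log2 fold change was 1.01 ± 0.24 (edgeR quasi-likelihood, adjusted p = 0.111). Hbb-bh1, the beta-h1 chain, stood at 107 and 121 CPM for Runx1 and at 72.1 and 45.1 for IgG, again without overlap. The IgG libraries differed from each other by more than the Runx1 libraries did. The log2 fold change of Hbb-bh1 was 0.93 ± 0.36 (edgeR adjusted p = 0.289).

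Hba-x and Hbb-y came nearest to a call and were called by some other fits of the same counts. Before adjustment, 3 members passed 0.05 in edgeR, all higher and all embryonic (Hba-x 0.00234, Hbb-y 0.00545 and Hbb-bh1 0.0297). By that measure 14.2% of tested genes passed, 6.88% higher and 7.35% lower. The 3 embryonic genes also had the most counts over all libraries, at 1422 (Hba-x), 2203 (Hbb-y) and 797 (Hbb-bh1). Of the adult genes Hba-a1 had the most, at 500, and its log2 fold change was 0.72, beside 0.73 for Hbb-y. The part of count depth in which members passed was not tested. With DESeq2, Hba-x (adjusted p = 0.0115) and Hbb-y (adjusted p = 0.0375) were called, where 1.85% of genes were called higher, while limma-voom called no member and 0.823% of genes higher. DESeq2 gave no adjusted p for Hba-a2 and Hbb-bs. Hba-x was also called by edgeR without the low-count filter (adjusted p = 0.0273, 1.01% of genes higher) and with a filter of 10 counts in every library (adjusted p = 0.0481, 1.33% of genes higher).

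The adult alpha chains are the partners of all later haemoglobins. Hba-a1 stood at 57.3 and 77.9 CPM for Runx1 and 41.9 and 38.7 for IgG, without overlap, and its log2 fold change was 0.72 ± 0.41 (edgeR adjusted p = 0.490). Hba-a2 had only 16 and 15 counts for Runx1 and 12 and 5 for IgG, or 9.55, 7.95, 3.12 and 2.01 CPM. Its log2 fold change of 1.71 was the largest of the family and had the largest error, ± 1.12 (edgeR adjusted p = 0.557). Summed, as their near-identity asks, Hba-a1 and Hba-a2 stood at 66.8 and 85.8 against 45.0 and 40.7 CPM. The sum again did not overlap between antibodies (0.80 ± 0.39 on the log2 scale, edgeR adjusted p = 0.396). Hba-a1 took 85.7% and 90.7% of the pair's counts in the Runx1 libraries and 93.1% and 95.05% in the IgG libraries.

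The adult beta genes, the beta chains of the definitive lineage, gave few counts. Hbb-bs had 28 and 25 counts for Runx1 and 51 and 15 for IgG, or 16.7, 13.2, 13.3 and 6.04 CPM. The groups overlapped, and the log2 fold change was 0.59 ± 0.80 (edgeR adjusted p = 0.818). Hbb-bt had 6, 6, 10 and 10 counts in Runx1 replicates 1 and 2 and IgG replicates 1 and 2, or 3.58, 3.18, 2.60 and 4.03 CPM. These overlapped as well, and Hbb-bt was not tested, as it did not pass the filter on low counts. The sum of Hbb-bt and Hbb-bs was 20.3 and 16.4 CPM against 15.9 and 10.1, which do not overlap (0.46 ± 0.69 on the log2 scale, edgeR adjusted p = 0.839). The lowest Runx1 and the highest IgG value of the sum lay close together. In 5 of the 6 tested genes both Runx1 libraries exceeded both IgG libraries and in 0 the reverse held. Over all tested genes these shares were 24.1% and 21.3%.

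**Figure D1:**
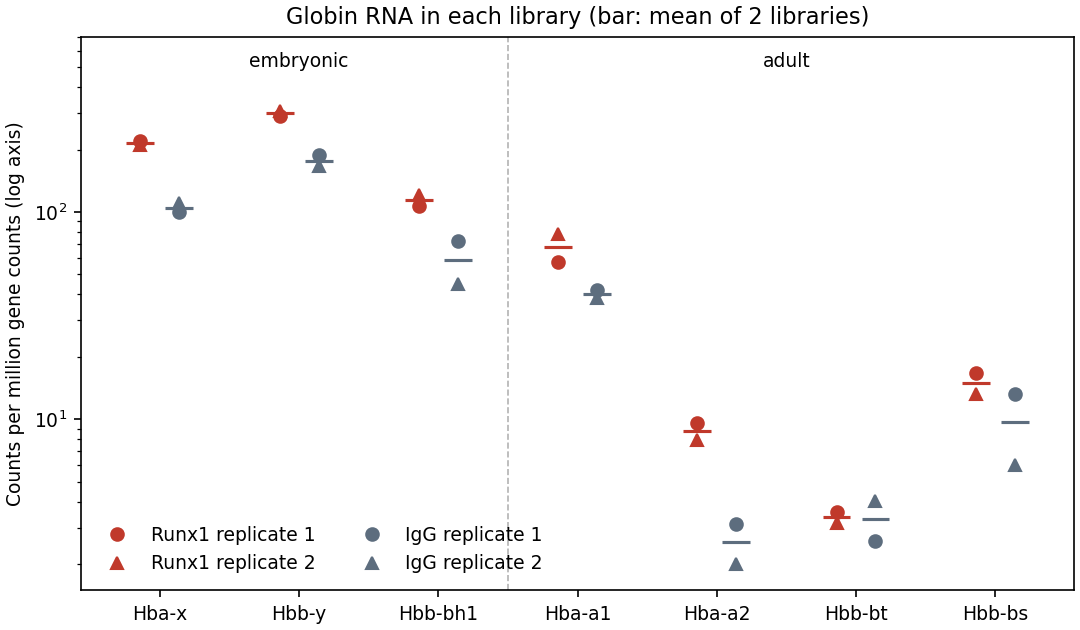
CPM (log axis) of the 7 globin genes, each point a library (red for the Runx1 antibody, grey for IgG, circle for replicate 1, triangle for replicate 2) and each short bar the mean of 2 libraries. The embryonic genes reach 45.1 to 307 CPM and the adult beta genes 2.60 to 16.7, and only Hbb-bt and Hbb-bs overlap between the antibodies.

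Per kilobase of transcript, which adjusts for transcript length alone, the order was Hbb-y, Hba-x, Hbb-bh1, Hba-a1, Hbb-bs, Hba-a2 and Hbb-bt. The places of the single adult copies rest on the uncertain division of counts within each adult pair. With the Runx1 antibody Hbb-y stood at 473 ± 17.3 CPM per kilobase, Hba-x at 268 ± 8.20, Hbb-bh1 at 186 ± 15.4 and Hba-a1 at 96.7 ± 20.8 (SD, n = 2). With IgG the same genes stood at 279.6 ± 23.7, 131 ± 8.90, 95.6 ± 31.1 and 57.6 ± 3.25. The adult beta genes Hbb-bs and Hbb-bt were at 23.9 ± 3.90 and 4.81 ± 0.404 with the Runx1 antibody and at 15.4 ± 8.14 and 4.72 ± 1.44 with IgG. The adult alpha pair came to 107 and 137 CPM per kilobase for Runx1 and 71.8 and 65.0 for IgG. The adult beta pair came to 30.5 and 24.7 against 23.8 and 15.1, below the alpha pair in every library. Neighbours as far as Hba-a2 kept this order in all 4 libraries, and Hba-a2 was above Hbb-bt in 3 of 4. Over all 4 libraries the ranges of neighbours were apart only between Hba-a1 and Hbb-bs. The order per kilobase of coding sequence was the same.

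Ratios within a library need no scaling. Embryonic genes made up 87.7% of globin counts in Runx1 replicate 1 (exact 95% interval 85.6 to 89.5) and 86.2% in replicate 2 (84.3 to 88.0). With IgG they made up 85.5% (83.7 to 87.2) and 86.4% (84.0 to 88.5). All 4 intervals overlap. As ratios of embryonic to adult counts these are 7.10 and 6.24 for Runx1 and 5.91 and 6.33 for IgG. The mean log2 ratio was 2.74 ± 0.13 against 2.61 ± 0.071 (SD, n = 2 each), a difference of 0.12 (two-sided exact permutation test, p = 0.667, where 0.3333 is the smallest possible). The difference is within the spread between replicates, so a shift from embryonic toward adult forms between the antibodies was not detectable.

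Within the alpha-like genes Hba-x outnumbered the summed adult copies 3.29 and 2.45 to 1 in the Runx1 libraries and 2.22 and 2.703 to 1 in the IgG libraries. Within the beta-like genes Hbb-y and Hbb-bh1 outnumbered Hbb-bt and Hbb-bs by more, 19.7 and 26.1 to 1 against 16.4 and 21 to 1. In every library the embryonic share was thus higher on the beta side than on the alpha side, and the exact 95% intervals did not overlap (95.2% with 93.3 to 96.6 against 76.7% with 72.6 to 80.4 in Runx1 replicate 1). For neither family did the antibody groups separate (exact permutation test, p = 0.667 for each; differences of 0.21 and 0.29 on the log2 scale). Adult alpha counts exceeded adult beta counts 3.29 and 5.23 to 1 for Runx1 and 2.84 and 4.04 to 1 for IgG.

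Of the embryonic beta-like genes, Hbb-y exceeded Hbb-bh1 in all libraries. The ratio of Hbb-y to Hbb-bh1 counts was 2.72 (exact 95% interval 2.29 to 3.24) and 2.54 (2.18 to 2.98) with the Runx1 antibody. It was 2.60 (2.26 to 3.001) and 3.69 (2.99 to 4.59) with IgG, so that IgG replicate 2 was the high library. The antibody groups overlapped (exact permutation test, p = 0.667).

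Alpha-like counts were fewer than beta-like counts in every library. Their ratio was 0.683 (exact 95% interval 0.607 to 0.768) and 0.666 (0.598 to 0.742) with the Runx1 antibody, and 0.526 (0.474 to 0.583) and 0.680 (0.595 to 0.777) with IgG. IgG replicate 1 was the low library and the other 3 lay together. The difference between antibodies, 0.17 on the log2 scale (exact permutation test, p = 0.667), came to -0.012 without IgG replicate 1. Hba-x made up 23.8% of globin counts in IgG replicate 1 and 28.4% to 31.1% in the other libraries.

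**Figure D2:**
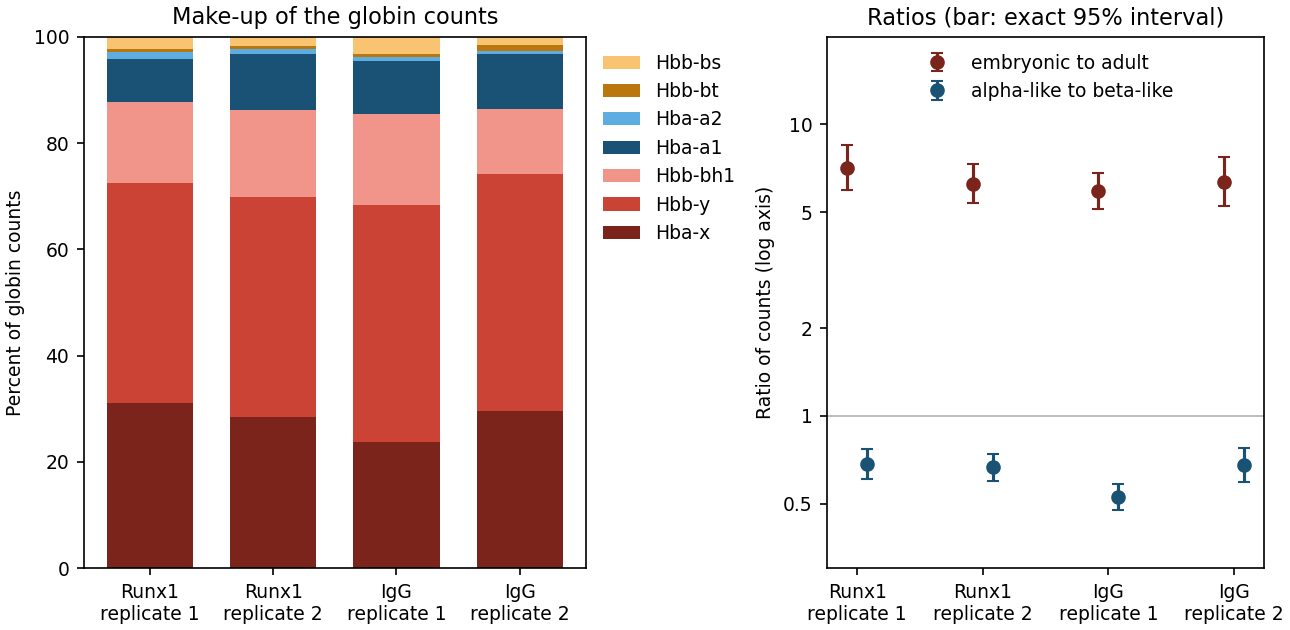
Left, percent of globin counts on each gene in the 4 libraries. Right, ratio of embryonic to adult counts and of alpha-like to beta-like counts (log axis) with exact 95% intervals that cover counting error. The embryonic to adult ratio lies between 5.91 and 7.10 in all libraries, and the alpha-like to beta-like ratio is lowest, at 0.526, in IgG replicate 1.

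The fold changes of the globins moved with a joint correction for transcript length and GC content, and with scaling. Main transcripts of the 7 genes are 554 to 801 bases long, while the median longest transcript of tested genes is 3466 bases. The 263 tested genes within that length range had a median log2 fold change of 0.37. Once length and GC content were corrected for, the log2 fold change was 0.45 for Hba-x, 0.35 for Hbb-y, 0.61 for Hbb-bh1, 0.14 for Hba-a1, 1.16 for Hba-a2 and 0.15 for Hbb-bs, and none was called (edgeR adjusted p from 0.544 to 0.975). Under scaling to the spike-ins the median of all tested genes was -1.25, with 0.153% called higher and 31.6% lower. Hba-x stood at -0.26, Hbb-y at -0.56, Hbb-bh1 at -0.40, Hba-a1 at -0.57, Hbb-bs at -0.75 and Hba-a2 at 0.41 under that scaling, all above the median gene and none called. The part of length, GC content and RNA amount in the globin values was not tested. With each library left out in turn all 6 fold changes were above 1 and none was called. Hbb-bh1 then ranged from 0.62 without IgG replicate 2 to 1.30 without IgG replicate 1, and Hbb-bs from 0.13 to 1.26 with the same libraries left out.

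**Figure D3:**
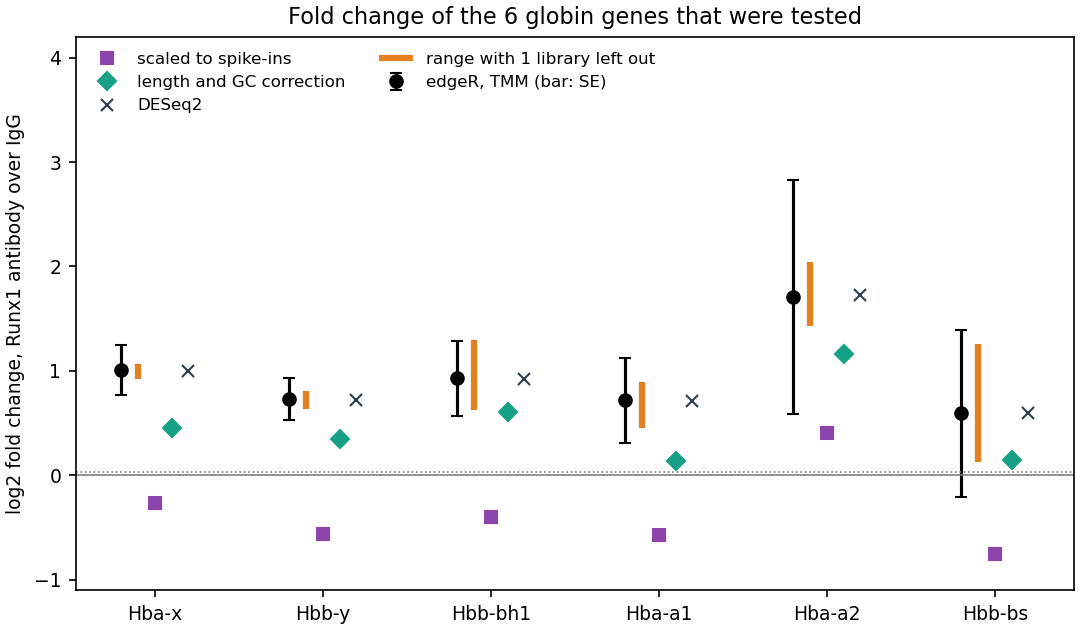
Log2 fold change (Runx1 antibody over IgG) of the 6 tested globin genes. Black points with SE are edgeR with TMM scaling, orange bars the range with 1 library left out, diamonds the length and GC correction, crosses DESeq2 and squares the spike-in scaling; the dotted line is the median of all tested genes. Squares lie below 0 for all but Hba-a2, and diamonds lie between 0 and the black points.

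Other genes of the globin clusters gave almost no counts. Hbq1b, a theta-like gene of the alpha cluster, had 5 counts in Runx1 replicate 1 (2.98 CPM) and 0 elsewhere, and the pseudogene Hbb-bh0 had 4 counts in that library and 0 elsewhere. Hbq1a, Hbb-bh2, Hbb-bh3, Hba-ps3 and Hba-ps4 had 0 counts in every library. A count of 0 allows up to 1.79, 1.59, 0.781 and 1.21 CPM in the 4 libraries. Of 7 genes that flank the alpha cluster, 6 were tested and none was called. Rhbdf1, a rhomboid-like membrane protein, stood at 60.9 and 51.9 CPM against 22.1 and 30.2 (log2 fold change 1.08 ± 0.46, edgeR adjusted p = 0.340). Sh3pxd2b, a scaffold protein, stood at 145 and 108 against 112 and 184 CPM (-0.26 ± 0.32, edgeR adjusted p = 0.793).

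Further genes of red cells were read from 7 lists with 99 genes, of which 81 were tested. In edgeR 1 rose, 1 fell and 79 did not pass, where 0.645% of all tested genes were called. Before adjustment 10 were higher and 3 lower at 0.05, beside 6.88% and 7.35% of all tested genes. Their median log2 fold change was 0.089 beside 0.027 over all tested genes. Both called genes belong to iron handling. Relative to other genes, though not under the spike-in scaling (-0.16), Ftl1, the light chain of the iron store ferritin, rose from 213 and 216 CPM with IgG to 430.3 and 519.8 with the Runx1 antibody (log2 fold change 1.12 ± 0.18, edgeR adjusted p = 0.0428). Ftl1 has near-identical copies in the genome, so its count is uncertain. Ireb2, the iron regulatory protein that binds ferritin and transferrin receptor mRNAs, fell from 941 and 852 CPM with IgG to 466 and 353 with the Runx1 antibody (log2 fold change -1.16 ± 0.16, edgeR adjusted p = 0.0303). Neither was called with the length and GC correction (Ireb2 -0.74, adjusted p = 0.109, and Ftl1 0.55, adjusted p = 0.270). With a replicate block neither was called either (edgeR adjusted p = 0.0708 and 0.125).

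Of the 7 lists, haem synthesis had the median nearest to that of the globins. None of its 13 tested genes was called by edgeR, DESeq2 or limma-voom, though DESeq2 gave no adjusted p for Uros, Ppox, Slc25a38 and Tmem14c. By edgeR 11 were above 0, the median log2 fold change was 0.69, and 8 of 13 had both Runx1 libraries above both IgG libraries, beside 24.1% of all tested genes. Before adjustment 4 passed 0.05 in edgeR, all higher, beside 6.88% of all tested genes. Alas2 was among them. Alas2, the erythroid enzyme of the first step of haem synthesis, stood at 164 and 125 CPM for Runx1 and 77.3 and 87.4 for IgG, without overlap (log2 fold change 0.78 ± 0.29, edgeR adjusted p = 0.284). The median of the list was 0.46 without Runx1 replicate 2 and 0.38 with length and GC content corrected, and -0.56 under the spike-in scaling.

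Red cells carry enzymes against oxidation and a spectrin-based membrane skeleton. Of 9 tested enzyme and haemoglobin-linked genes none was called by edgeR, and the median was 0.54 (0.085 with length and GC content corrected and -0.62 under the spike-in scaling). Prdx2, a peroxiredoxin abundant in red cells, stood at 261 and 266 CPM for Runx1 and 154 and 139 for IgG (0.82 ± 0.21, edgeR adjusted p = 0.140, DESeq2 adjusted p = 0.0262). Catalase, Cat, stood at 139.7 and 81.1 against 79.1 and 98.7 CPM, with overlap. Of 10 tested genes of the red cell membrane none was called, and the median was 0.044. Epb41, the membrane skeleton protein 4.1, stood at 299.6 and 486 against 454 and 388 CPM, and beta-spectrin, Sptb, at 107 and 75.8 against 143 and 112 CPM (-0.51 ± 0.31, edgeR adjusted p = 0.523).

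No regulator of the erythroid programme was called in edgeR. Of 16 transcription factor and receptor genes 12 were tested and none was called, with a median of -0.12. Klf1, the activator of the adult beta-globin promoter, had 5 and 4 counts against 3 and 2. Gata1, the master erythroid factor, varied within each antibody, at 0.597 and 24.4 CPM against 8.59 and 26.6. The more abundant Klf3 (115 and 124 against 92.9 and 102 CPM, edgeR adjusted p = 0.759) and Kit (50.1 and 108 against 98.4 and 87.4 CPM, edgeR adjusted p = 0.855) were not called. Of 18 genes known to act in the switch from embryonic to adult globin none was called by edgeR, with a median of 0.020. Chd4, a remodelling ATPase of the NuRD complex, stood at 1893 and 2541 against 2612 and 2462 CPM (edgeR adjusted p = 0.525, and -0.47 with an adjusted p of 0.00331 without Runx1 replicate 2). Hdac2, a histone deacetylase of the same complex, stood at 596 and 469 against 395 and 443 CPM (0.32 ± 0.17, edgeR adjusted p = 0.463). Mbd3, another NuRD member, named after its values were seen, stood at 312 and 246 against 175 and 136 CPM and was called by DESeq2 alone (DESeq2 adjusted p = 0.0392, edgeR adjusted p = 0.178). Hic2, also named after its values were seen, went the other way, at 41.8 and 51.9 against 92.1 and 90.2 CPM (edgeR adjusted p = 0.272). Of the 18 switch genes, 3 had both Runx1 libraries above both IgG libraries and 5 had both below, beside 24.1% and 21.3% of all tested genes. Of 10 tested genes of late red cell maturation none was called, with a median of 0.092. Its most abundant members were Bcl2l1, a survival factor (106 and 208 against 161 and 209 CPM), and Ube2o, a ubiquitin ligase of terminal maturation (90.1 and 153 against 92.6 and 109.6 CPM).

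**Figure D4:**
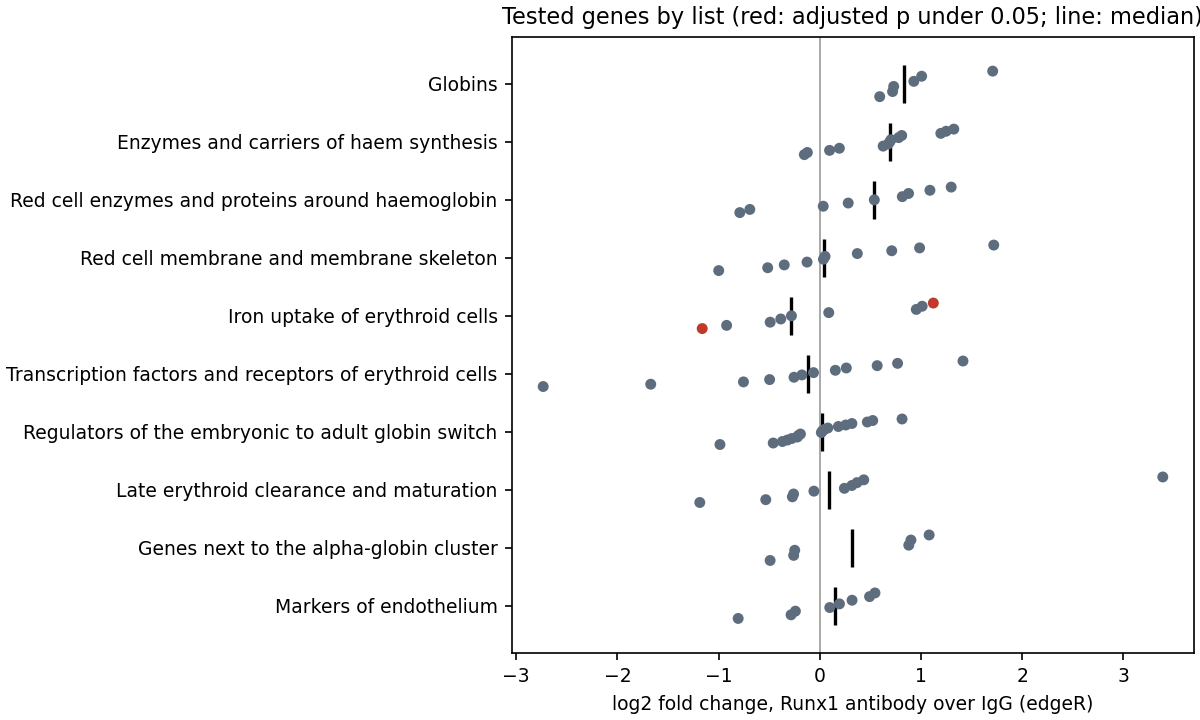
Log2 fold change (edgeR, Runx1 antibody over IgG) of each tested gene, by list, with the median as a black line and genes at an adjusted p under 0.05 in red. Globins (median 0.83), haem synthesis genes (0.69) and red cell enzymes (0.54, with 7 of 9 above 0) lie mostly to the right of 0. The red points are Ireb2 and Ftl1, and the other lists spread to both sides.

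Defining markers of red cells other than the globins were uneven. Of 10 erythroid markers 9 had a row in the table, and 8 of these had counts in all 4 libraries. Their summed level was 269.8 and 245 CPM for Runx1 and 206 and 218 for IgG, with Alas2 the highest of them. The anion exchanger Slc4a1 stood at 10.1 and 15.9 against 9.89 and 5.64 CPM. The carbonic anhydrase Car2 went the other way, at 37.0 and 29.7 against 74.4 and 38.3 CPM, as did Hemgn, at 0.597 and 2.12 against 5.72 and 12.9 CPM, and none of these was called. Of the 7 tested erythroid markers, 2 had both Runx1 libraries above both IgG libraries and 2 had both below. The same counts were 1 and 1 of 4 tested macrophage markers and 1 and 1 of 3 tested megakaryocyte markers. They were 1 and 3 of 8 tested endothelial markers and 3 and 2 of 6 tested mesenchymal markers. Over all tested genes the shares above and below were 24.1% and 21.3%. Endothelial markers had counts in all libraries for 8 of 8 genes, with sums of 1477 and 1187 CPM against 1497 and 1411. Mesenchymal markers summed to 1075 and 1167 against 1069 and 1050.3 CPM. Macrophage markers summed to 100.3 and 225 against 98.4 and 88.6 CPM, the high library being Runx1 replicate 2, with Cd68, Adgre1, C1qa and C1qb at 0 in at least 1 library. Among them C1qa stood at 7.16 and 14.3 against 0 and 0 CPM (edgeR adjusted p = 0.135). C1qb went the other way, at 2.39 and 0 against 6.76 and 5.64 CPM (edgeR adjusted p = 0.562). Megakaryocyte markers summed to 58.5 and 77.4 against 91.8 and 62.0 CPM, with Pf4, Gp9, Gp1ba and Ppbp at 0 in at least 1 library. Ppbp stood at 12.5 and 12.2 against 0.260 and 0 CPM (edgeR adjusted p = 0.131). Itga2b went the other way, at 24.5 and 48.7 against 59.6 and 50.8 CPM (edgeR adjusted p = 0.650). C1qa, C1qb, Ppbp and Itga2b were named after their values were seen. No marker of these cell types was called by edgeR, and DESeq2 gave no adjusted p for C1qa, C1qb or Ppbp. DESeq2 called 1, the macrophage receptor Csf1r, named after its values were seen, at 11.9 and 144 against 12.5 and 9.67 CPM (DESeq2 adjusted p = 0.0171). The globin share was 0.0706% and 0.0741% in these Runx1 libraries, and the part of such cells in the globin values was not tested.

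The 5 genes whose levels ran most like the embryonic globins over the 4 libraries were then picked out. Likeness was the root mean square distance between log2 CPM centred over the libraries, among 4116 protein-coding genes with a mean of at least 50 CPM. The closest were Opa3 (0.038), Snrnp40 (0.045), Ptpa (0.048), Bsg (0.052) and Snrpb (0.052), while Hbb-y itself lay at 0.086 from the mean of the embryonic genes, Hba-x at 0.15 and Hbb-bh1 at 0.16. Snrpb, a core protein of the spliceosome, stood at 263 and 299 CPM for Runx1 and 153 and 132 for IgG (log2 fold change 0.95 ± 0.22, edgeR adjusted p = 0.0990). It was called with DESeq2 (adjusted p = 0.00653), and by edgeR without the low-count filter (adjusted p = 0.0158) and with 10 counts in every library (adjusted p = 0.0395). The 5 genes were picked by their levels in these same libraries, where the embryonic globins were higher with the Runx1 antibody. Their fold changes and calls follow from the pick and are not separate evidence. The likeness rests on 4 libraries. Runx1 RNA itself stood at 31.6 and 32.9 against 18.2 and 20.1 CPM (0.72 ± 0.57, edgeR adjusted p = 0.647).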

How the data were processed

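The authors deposited 1 table of raw counts per Ensembl gene, whole numbers with no normalization, a column for each library. Salmon 1.1.0, STAR 2.7.3a, Trimmomatic 0.36 and the mm10 build are named, without roles, per the submitters' processing notes. The sources used here do not give the annotation, the strand setting or whether counts are rounded estimates. Of 55573 gene identifiers 55480 were in GENCODE M21. The 92 spike-in rows stayed out of library sizes and tests. Groups came from sample titles. The gene test was edgeR 4.0.16 (R 4.3.3), two-sided (quasi-likelihood, TMM, filterByExpr with a minimum count of 10 and total of 15, no block) over all 4 libraries, with Benjamini-Hochberg adjustment over 12401 genes. The biological coefficient of variation was 46.1%. Standard errors were taken as the log2 fold change over the root of the F statistic. Near-identical adult copies were also summed before the fit. Log2 ratios of summed counts were set against each other in an exact permutation test over 6 arrangements. The gene test was tested on simulated data. Alternatives were other scalings, including the spike-ins, other filters, a replicate block, each library left out, DESeq2 1.42.0, limma-voom (limma 3.58.1), summed copies, and a length and GC correction (natural splines with 5 degrees of freedom, as offsets), the last added after seeing the data. Named list genes are those called, at most 4 per list, or else the 2 with the highest mean, and some genes are not reported here. The members and lists were chosen with earlier results of these data known. Ahsp had no row matched by symbol and was not analysed here. Main transcripts are the annotated ones with a complete coding sequence.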

Additional observations from a re-analysis of the deposited data

How the results depend on the processing

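The count of called globin genes, 0 in edgeR, was 1 without the low-count filter and 1 with 10 counts in every library (Hba-x in both), 2 with DESeq2 (Hba-x and Hbb-y), and 0 under the 12 other settings run. Apart from the spike-in scaling and the length and GC correction, the log2 fold change stayed between 0.92 and 1.06 for Hba-x and between 0.63 and 0.81 for Hbb-y. The count of called red cell genes, 2 in edgeR with TMM scaling, was 28 of 81 under the spike-in scaling (all lower, where 31.6% of all tested genes were lower), 4 with DESeq2 and 0 with length and GC content corrected, and ran from 2 to 4 with each library left out (4 without Runx1 replicate 2). With a replicate block 0 of the red cell genes and 0 of the globins were called. Over tested genes, the difference between replicates 1 and 2 correlated at 0.0044 between the antibodies. Noise of single libraries can hide shared material, so this value cannot show whether replicates of the same number were matched. No label says whether they were. The globin share of gene counts differed by 0.87 (log2), by 0.78 to 0.96 with each library left out, and by -0.42 per spike-in count. Per spike-in count IgG replicate 1 was the high library, at 3.27, beside 2.13 in IgG replicate 2. The alpha to beta ratio differed by 0.17, and by -0.012 to 0.36 with each library left out, the first without IgG replicate 1. The embryonic to adult ratio differed by 0.030 to 0.22 with each library left out. With 1 library left out of a group of 2, the lone library is assumed to vary like the others.

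The spike-in scaling reversed the direction of Hba-x (-0.26), Hbb-y (-0.56), Hbb-bh1 (-0.40), Hba-a1 (-0.57), Hbb-bs (-0.75), Rhbdf1 (-0.16), Alas2 (-0.48), Prdx2 (-0.47), Cat (-0.96), Ftl1 (-0.16), Klf3 (-1.01), Hdac2 (-0.94), Ube2o (-1.03), Runx1 (-0.55), Opa3 (-0.33), Snrnp40 (-0.37), Ptpa (-0.32), Bsg (-0.34) and Snrpb (-0.35), as one factor per library moves all genes down. Without Runx1 replicate 1, Epb41 (0.15), Cat (-0.19), Kit (0.16), Bcl2l1 (0.12) and Gata1 (0.43) changed sign. Without Runx1 replicate 2 Ube2o did (-0.22), and without IgG replicate 2 Sh3pxd2b (0.13) and Gata1 (0.51) did. After the length and GC correction Epb41 did (0.33). The other ends of these ranges were -0.54 for Epb41, 0.60 for Cat, -0.86 for Bcl2l1, -0.94 for Kit and -4.82 for Gata1 without Runx1 replicate 2, 0.55 for Ube2o without Runx1 replicate 1, and -0.59 for Sh3pxd2b without IgG replicate 1. The cause of these changes was not tested. The depth of 1675488 to 3843318 gene counts limits Hba-a2, Hbb-bt and Hbb-bs most, with 5 to 51 counts per library.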
